A study of Homo sapiens with 96 samples.

Results

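The genes described are 8 transporters that carry amino acids across the plasma membrane, or the subunit that takes such a transporter there: SLC7A5, SLC3A2, SLC7A1, SLC1A4, SLC1A5, SLC38A1, SLC38A2 and SLC6A9. They were chosen by name, are 8 of the 19438 genes in the deposited tables, and all 8 were expressed highly enough to be tested in every comparison. Their mRNA was measured by total RNA sequencing, and their ribosome footprints, the mRNA fragments that a translating ribosome shields from nuclease, were measured by ribosome profiling. The material was U2-OS, a human osteosarcoma cell line, in a derivative that expresses luciferase from the Per2 promoter.

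Bmal1 knockdown plates started from 560000 cells and were transfected with 120 pmol of a mix of 5 siRNAs against Bmal1, the clock gene listed as ARNTL. Wild-type plates started from 4.02 times as many cells and got no siRNA. Fresh medium with 0.1 µM dexamethasone, a glucocorticoid drug that sets the clocks of cultured cells to the same phase, synchronised both treatments and also held luciferin, the substrate of the reporter. Collection began 24.5 h later and went on every 2 h for 1 day (circadian time, CT, 0 to 22 h), each time after 100 µg/mL cycloheximide, which holds ribosomes on their mRNA. Each of the 48 combinations of treatment, assay and time had 2 replicates, so each treatment and assay had 24 libraries. The labels name no control siRNA, so transfection and seeding density changed together with Bmal1 and cannot be told apart from it. The labels do not say whether replicates were grown separately, and the p-values therefore cover no more than the spread of these libraries, which may be technical.

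Amino acids cross the plasma membrane poorly without a carrier, and most cells combine transporters of several types. Uniporters such as SLC7A1 (CAT-1) bring in arginine and lysine, and sodium-coupled transporters such as SLC38A1 (SNAT1) and SLC38A2 (SNAT2) load the cell with glutamine and other small neutral amino acids. Exchangers such as SLC1A4 (ASCT1), SLC1A5 (ASCT2) and SLC7A5 (LAT1) then trade internal amino acids for those that the cell lacks. SLC7A5 works only as a pair with the glycoprotein SLC3A2 (4F2hc, CD98), which carries it to the surface. Leucine imported by that pair is a signal for the growth kinase mTORC1, and many of these genes are induced by the transcription factor ATF4 when amino acids run short. BMAL1 pairs with CLOCK and activates genes through a DNA element called the E-box.

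Recovered reads totalled 13.6 to 20.1 M (M, 1e+06 reads) in 46 of the 48 total RNA libraries. The knockdown libraries of replicate 2 at CT14 and CT18 held 2.66 and 2.56 M. Footprint libraries held 2.50 to 5.82 M reads, so rare transcripts such as SLC6A9 rest on 27 to 116 footprint reads in a library, and SLC7A5 on 906 to 2800. ARNTL total RNA averaged 4.84 ± 0.710 CPM (counts per M reads, SD, n = 24) in knockdown libraries and 32.5 ± 11.5 CPM (n = 24) in wild-type libraries, without overlap. Its footprints averaged 0.658 CPM in knockdown and 18.7 CPM in wild-type libraries. Of 7 markers of osteoblasts or mesenchymal cells, 6 averaged over 1 CPM in both treatments (COL1A2 was near 0), and their summed level was 3515 to 4270 CPM in knockdown and 3090 to 3543 CPM in wild-type libraries. The 4 epithelial markers summed to at most 15.3 CPM in knockdown and 23.7 CPM in wild-type libraries. The 4 blood markers summed to 9.84 to 17.6 CPM in knockdown and 1.57 to 3.38 CPM in wild-type libraries, CD3E had no read in either treatment, and CD68 averaged 12.8 CPM in knockdown and 2.09 CPM in wild-type libraries. Of the 4 neuronal markers, TUBB3 made up most of the sum, 251 to 345 CPM in knockdown and 264 to 341 CPM in wild-type libraries. The part of these marker levels in the results that follow was not tested. In bulk RNA, fewer cells of a type and less RNA per cell cannot be told apart.

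RefSeq (GRCh38.p14) lists 14 promoter windows for the 8 genes, each reaching from 250 bases before the start of transcription to 50 after it. The palindrome CACGTG, the E-box form that CLOCK and BMAL1 bind best, stands in 2 of them, one of SLC7A5 and one of SLC1A5, and in 7.26% of 35116 windows of all genes. The letters TGATGNAA (TTNCATCA on the other strand), the core of the element that ATF4 and C/EBP proteins bind, stand in 5 of the 14, a window each of SLC3A2, SLC7A1, SLC1A4, SLC1A5 and SLC38A1, and in 3.62% of all windows. The 3 sequences below are shown because SLC7A5 was rhythmic in knockdown cells, SLC1A4 had the largest fall of the 8, and SLC38A2 was rhythmic in wild-type cells. They are read 5′ to 3′ on the strand of the gene up to the start of transcription, with CACGTG or TGATGNAA in either direction in capitals, and SLC38A2 has neither.
SLC7A5, chr16:87869508-87869757, minus strand: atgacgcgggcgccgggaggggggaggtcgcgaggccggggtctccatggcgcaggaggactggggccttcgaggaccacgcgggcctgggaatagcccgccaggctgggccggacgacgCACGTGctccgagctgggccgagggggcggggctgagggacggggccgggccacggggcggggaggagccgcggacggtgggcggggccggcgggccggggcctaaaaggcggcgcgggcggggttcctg
SLC1A4, chr2:64989149-64989399, plus strand: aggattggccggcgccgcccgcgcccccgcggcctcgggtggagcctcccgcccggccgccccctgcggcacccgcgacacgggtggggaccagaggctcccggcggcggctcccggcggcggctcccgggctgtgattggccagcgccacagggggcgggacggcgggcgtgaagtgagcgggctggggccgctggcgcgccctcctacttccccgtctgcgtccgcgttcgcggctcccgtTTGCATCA
SLC38A2, chr12:46372774-46373023, minus strand: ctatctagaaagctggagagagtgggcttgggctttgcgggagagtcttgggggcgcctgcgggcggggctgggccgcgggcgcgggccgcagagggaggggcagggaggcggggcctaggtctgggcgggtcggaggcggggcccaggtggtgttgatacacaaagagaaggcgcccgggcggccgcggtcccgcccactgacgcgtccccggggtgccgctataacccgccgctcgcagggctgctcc
The E-box of SLC7A5 begins 130 bases before the start. The capitals in SLC1A4 begin 7 bases before it and run to the first transcribed base, where the printed sequence ends. SLC3A2, SLC1A4, SLC1A5 and SLC38A1 have alternative starts, and their matches lie in windows of starts downstream of the first. In SLC1A5 the CACGTG and the TGATGNAA stand in different windows. The window of the first start has neither in any of these genes, and which start the cells used was not tested. A match is a description of the letters, and no binding was measured here.

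In total RNA, SLC7A1 was higher and the other 7 transporters were lower in knockdown cells, with means at 57.1% to 92.6% of wild-type. SLC1A4, the exchanger of serine, alanine, cysteine and threonine, had the largest fall of the 8, followed by SLC6A9 and SLC38A1. In footprints SLC1A4 averaged 55.8% and SLC38A1 57.8% of wild-type, and SLC7A1 was again the only 1 of the 8 that was higher past the threshold. All 8 passed an adjusted p of 0.05 in total RNA (limma, Benjamini-Hochberg over 13188 genes), 1 higher and 7 lower, where 81.7% of all genes passed, 41.8% higher and 39.9% lower. In footprints 7 of 8 passed, 1 higher and 6 lower, where 75.5% of 11189 genes passed, 37.4% higher and 38.1% lower. So many genes passed in both assays that the number of transporters called is close to the background. The median effect over the 8 was -0.20 in total RNA and -0.28 in footprints (log2, knockdown minus wild-type), against 0.01 and -0.01 over all genes tested. With a single mean for each replicate series, 2 against 2, SLC7A5, SLC3A2 and SLC38A2 missed the threshold in total RNA, and SLC3A2 and SLC38A2 in footprints, with adjusted p from 0.0641 to 0.144 (limma). With the deposited scaling factors, 61.4% of the footprint calls over all genes were higher in place of 49.5%.

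**Figure D1:**
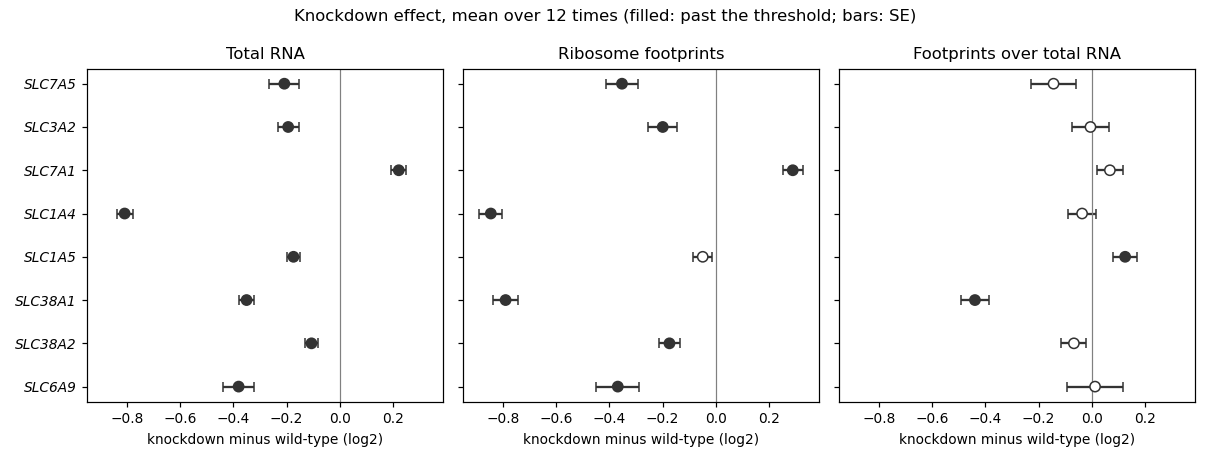
Knockdown effect on 8 amino acid transporter genes in total RNA, in footprints and in footprints over total RNA, as log2 of knockdown minus wild-type averaged over 12 times, with bars for the SE and filled points past an adjusted p of 0.05. SLC1A4 lies near -0.8 in the first panels, SLC7A1 alone lies right of 0 in both, and SLC38A1 lies at -0.79 in footprints and -0.44 in the ratio.

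SLC7A5, the leucine exchanger LAT1, ranged from 215.5 CPM through a median of 270.6 to 409.7 CPM in the 24 knockdown total RNA libraries, against 258.2, 317.8 and 380.7 CPM in the 24 wild-type libraries. The ranges overlap, with 11 knockdown libraries under every wild-type library and 1, at CT20, over every wild-type library. Its total RNA fell by 0.21 ± 0.06 (log2 ± SE, limma adjusted p = 0.00141). Footprints of SLC7A5 ranged from 258.6 through 345.6 to 507.4 CPM in knockdown libraries, against 341.7, 472.6 and 556.2 CPM in wild-type libraries, and fell by 0.35 ± 0.06 (limma adjusted p = 9.90e-06). The means of footprints were lower in knockdown cells at all 12 times, by 0.68 at CT10 but by 0.01 at CT20. The size of the fall depended on which wild-type series was used. SLC7A5 total RNA averaged 275.3 and 284.0 CPM in the knockdown series of replicates 1 and 2, against 284.4 and 358.2 CPM in the wild-type series of replicates 1 and 2. Without replicate 2 the total RNA difference was -0.07 (limma adjusted p = 0.372) and that in footprints -0.20, and without replicate 1 the total RNA difference was -0.36. SLC7A5 has pseudogene copies in the tables, SLC7A5P1 and SLC7A5P2, with at most 23 and 79 reads in a library, and reads shared with them could be assigned to either.

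SLC3A2, the heavy chain that brings SLC7A5 to the membrane, ranged from 173.3 through 243.0 to 315.6 CPM in knockdown total RNA libraries, against 226.3, 286.1 and 312.3 CPM in wild-type libraries. Most knockdown libraries, 17 of 24, lay within the wild-type range. The lowest knockdown values, 173.3 and 193.2 CPM, came from the shallow libraries at CT18 and CT14. SLC3A2 fell by 0.19 ± 0.04 in total RNA (limma adjusted p = 5.35e-05) and by 0.20 ± 0.05 in footprints (limma adjusted p = 0.00169). Its footprints ranged from 399.7 through 473.2 to 674.6 CPM in knockdown libraries, against 456.4, 584.8 and 722.4 CPM in wild-type libraries. As with its partner, the wild-type series differed from each other, with 512.3 and 642.8 footprint CPM in replicates 1 and 2, while both knockdown series averaged 502 CPM. Without replicate 2 the difference was -0.08 in total RNA (limma adjusted p = 0.122) and -0.03 in footprints (limma adjusted p = 0.526), and without replicate 1 it was -0.32 and -0.37. With the deposited scaling the footprint difference was -0.10 (limma adjusted p = 0.0825).

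SLC7A1, which imports the cationic amino acids arginine and lysine, ranged from 96.9 through 109.5 to 132.9 CPM in knockdown total RNA libraries, against 84.6, 94.2 and 111.0 CPM in wild-type libraries. The value of 132.9 CPM came from the shallow library at CT18. The means were higher in knockdown cells at all 12 times in both assays, although 14 total RNA and 11 footprint libraries of knockdown cells lay within the wild-type range. Total RNA rose by 0.22 ± 0.03 (limma adjusted p = 2.66e-08) and footprints by 0.29 ± 0.04 (limma adjusted p = 1.01e-08). Footprints ranged from 128.9 through 153.9 to 194.9 CPM in knockdown libraries, against 109.9, 125.7 and 150.9 CPM in wild-type libraries. The widest gap was at CT20 in both assays, 0.45 in total RNA and 0.53 in footprints on the log2 scale. Without replicate 2 the rise in total RNA was 0.12 (limma adjusted p = 0.00456).

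SLC1A4 separated the treatments completely. Its total RNA ranged from 25.7 through 31.3 to 36.0 CPM in knockdown libraries, against 44.0, 54.3 and 60.8 CPM in wild-type libraries. In footprints it ranged from 33.1 through 45.5 to 59.2 CPM in knockdown libraries, against 66.2, 81.1 and 93.4 CPM in wild-type libraries. No knockdown library reached the lowest wild-type library in either assay. The share of all genes that separate in this way was not counted. The total RNA mean was 57.1% of wild-type, a fall of 0.81 ± 0.03 (limma adjusted p = 5.35e-22), and the footprint mean was 55.8%, a fall of 0.84 ± 0.04 (limma adjusted p = 4.60e-21). Over all genes tested, 4.91% had a lower effect in total RNA and 5.66% in footprints. The replicate series were close to each other, with 30.2 and 31.7 CPM of total RNA in the knockdown series and 53.6 and 54.8 CPM in the wild-type series.

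SLC1A5, the main glutamine exchanger of many tumour cells, had a smaller effect than its close relative SLC1A4, a difference between genes that was not tested. Its total RNA ranged from 160.0 through 184.3 to 219.4 CPM in knockdown libraries, against 183.4, 212.0 and 235.9 CPM in wild-type libraries, and fell by 0.17 ± 0.03 (limma adjusted p = 2.48e-07). The treatments overlap, with 13 of 24 knockdown libraries within the wild-type range. In footprints SLC1A5 was the only 1 of the 8 that missed the threshold, at -0.05 ± 0.04 (limma adjusted p = 0.205), and with the deposited scaling it was 0.05 (limma adjusted p = 0.212). Footprints ranged from 265.6 through 300.004 to 412.5 CPM in knockdown libraries, against 278.5, 315.3 and 380.5 CPM in wild-type libraries.

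SLC38A1, the glutamine loader SNAT1, ranged from 22.05 through 24.8 to 29.2 CPM in knockdown total RNA libraries, against 25.1, 31.9 and 37.0 CPM in wild-type libraries. There 15 of 24 knockdown libraries lay under every wild-type library. Footprints ranged from 19.6 through 21.9 to 30.6 CPM in knockdown libraries, against 35.1, 38.9 and 49.5 CPM in wild-type libraries, and here all 24 lay under every wild-type library. Over all genes tested, 6.64% had a lower footprint effect, and the share that separate in this way was not counted. The fall was 0.35 ± 0.03 in total RNA (limma adjusted p = 9.59e-13) and 0.79 ± 0.05 in footprints (limma adjusted p = 1.00e-18), or 78.1% and 57.8% of the wild-type mean. The footprint values rest on 55 to 125 reads in a knockdown library and 97 to 229 in a wild-type library.

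SLC38A2, the transporter SNAT2 that cells raise when amino acids are scarce, had the smallest change in total RNA of the 8. It ranged from 422.3 through 481.4 to 540.3 CPM in knockdown total RNA libraries, against 448.3, 514.9 and 648.4 CPM in wild-type libraries. Only 3 of 24 knockdown libraries lay outside the wild-type range, all under it. They include the shallow libraries at CT14 and CT18, at 422.3 and 436.8 CPM. The fall was 0.11 ± 0.02 in total RNA (limma adjusted p = 0.000145) and 0.17 ± 0.04 in footprints (limma adjusted p = 8.38e-05). Footprints ranged from 373.4 through 412.5 to 479.5 CPM in knockdown libraries, all within the wild-type range of 359.1 to 631.2 CPM, whose median was 467.8 CPM. Without replicates 1 and 2 the total RNA difference was -0.17 and -0.05, with adjusted p of 0.00952 and 0.173 (limma). Without replicate 2 the footprint difference was -0.10 (limma adjusted p = 0.0325), and with the deposited scaling the footprint difference was -0.08 (limma adjusted p = 0.0667).

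SLC6A9, the glycine transporter GlyT1, had the fewest reads of the 8. Total RNA ranged from 6.59 through 7.34 to 11.2 CPM in knockdown libraries, against 7.60, 10.3 and 12.9 CPM in wild-type libraries, and 15 of 24 knockdown libraries lay under every wild-type library. The fall was 0.38 ± 0.06 in total RNA (limma adjusted p = 5.51e-07) and 0.37 ± 0.08 in footprints (limma adjusted p = 7.83e-05). Footprints ranged from 8.78 through 14.5 to 22.9 CPM in knockdown libraries, against 11.5, 18.2 and 33.1 CPM in wild-type libraries, so that 21 of 24 knockdown libraries lay within the wild-type range. The highest knockdown total RNA values, 11.2 and 9.93 CPM, came from the shallow libraries at CT14 and CT18, where SLC6A9 had few reads.

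**Figure D2:**
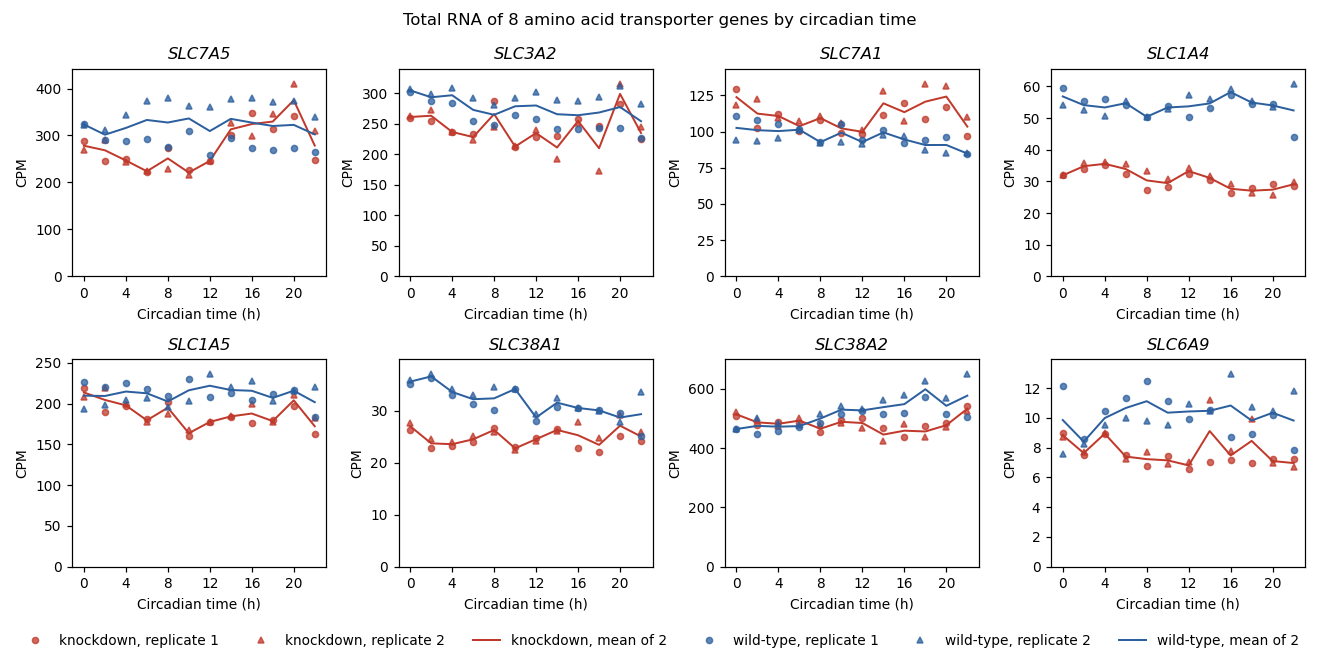
Total RNA of the 8 genes in CPM against circadian time in hours, with circles and triangles for replicates 1 and 2 and lines for their means, in knockdown and wild-type cells. The 24 SLC1A4 knockdown libraries, 25.7 to 36.0 CPM, lie under all wild-type libraries, and SLC7A5 in knockdown cells climbs late in the day to a mean of 375.1 CPM at CT20.

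**Figure D3:**
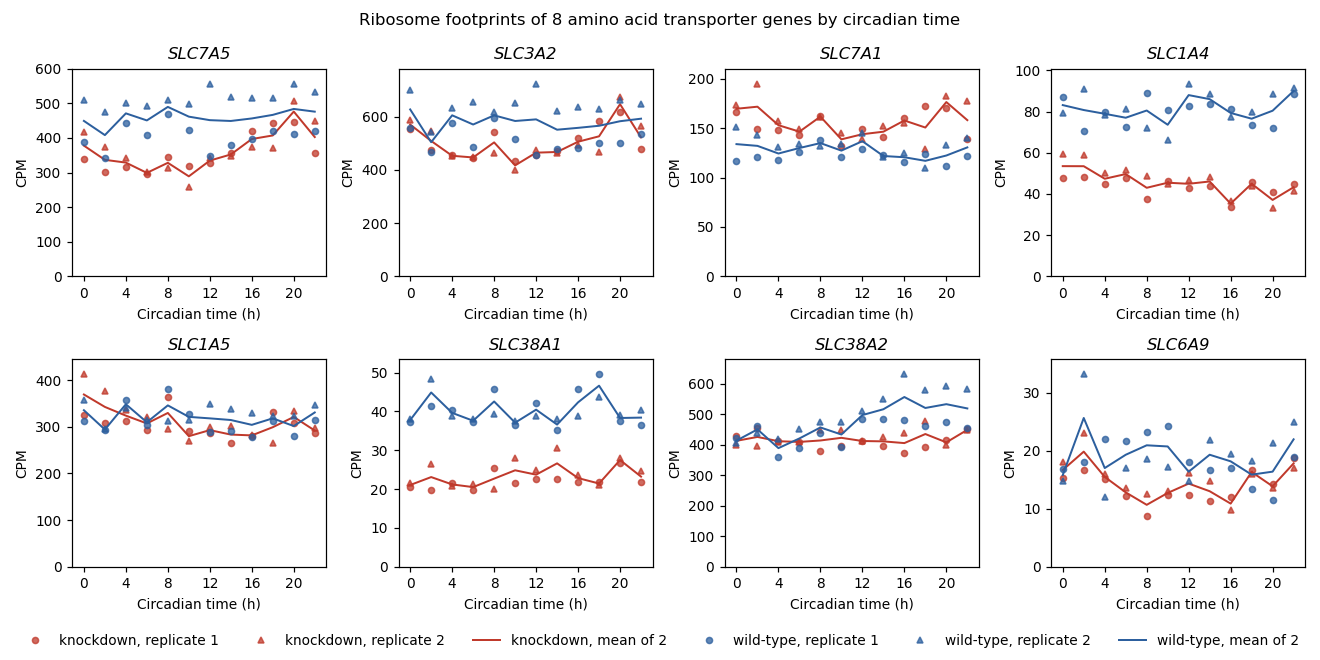
Ribosome footprints of the same genes on the same axes. SLC1A4 and SLC38A1 show no overlap between treatments, and SLC38A2 means stay between 405.7 and 449.2 CPM in knockdown cells while they climb to 556.8 CPM at CT16 in wild-type cells.

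The ratio of footprints to total RNA, called translational efficiency, asks whether ribosome occupancy per mRNA differed as well. Of the 8, SLC38A1 fell and SLC1A5 rose. SLC38A1 averaged -0.11 ± 0.18 (log2 of footprint over total RNA CPM, SD, 24 library pairs) in knockdown cells and 0.33 ± 0.19 in wild-type cells. A pair shares its time and replicate number, and whether that number links a total RNA library to a footprint library was not tested. Of the SLC38A1 knockdown pairs, 20 of 24 lay under every wild-type pair, a count that depends on this matching. The difference, whose test does not use the pairs, was -0.44 ± 0.05 (SE, limma interaction, adjusted p = 1.37e-09), and 2.60% of genes tested had a lower one. SLC1A5 averaged 0.72 ± 0.12 in knockdown cells and 0.59 ± 0.13 in wild-type cells. Only 2 of its knockdown pairs lay over every wild-type pair, and the difference was 0.12 ± 0.05 (limma interaction, adjusted p = 0.0299). Without replicate 1 the SLC1A5 difference was 0.07 (limma adjusted p = 0.518), and with the deposited scaling 0.23 (limma adjusted p = 5.65e-05).

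The other 6 did not pass in efficiency. SLC7A5 had -0.14 ± 0.08 (limma adjusted p = 0.201) and SLC1A4 had -0.04 ± 0.05 (limma adjusted p = 0.637), with overlapping pairs. SLC7A1 had 0.07 ± 0.05 (limma adjusted p = 0.314), but 0.20 without replicate 2 (limma adjusted p = 0.0171), -0.05 without replicate 1 (limma adjusted p = 0.611) and 0.17 with the deposited scaling (limma adjusted p = 0.00455). SLC38A2 had -0.07 ± 0.05, SLC3A2 -0.01 ± 0.07 and SLC6A9 0.01 ± 0.10, with adjusted p from 0.282 to 0.966. Background calls were 31.1% of 11149 genes, 13.1% higher and 18% lower, and 2 of 8 transporters is near that share. This comparison depends on how the assays were scaled: with the deposited scaling the median over all genes was 0.09 in place of -0.01 and 80.4% of 4621 calls were higher, in place of 42.1% of 3465. The median-ratio and joint scalings, like the deposited one, kept SLC38A1 lower and SLC1A5 higher past the threshold. With 1 mean for each series neither passed, at adjusted p = 0.0576 for SLC38A1 and 0.373 for SLC1A5 (limma).

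**Figure D4:**
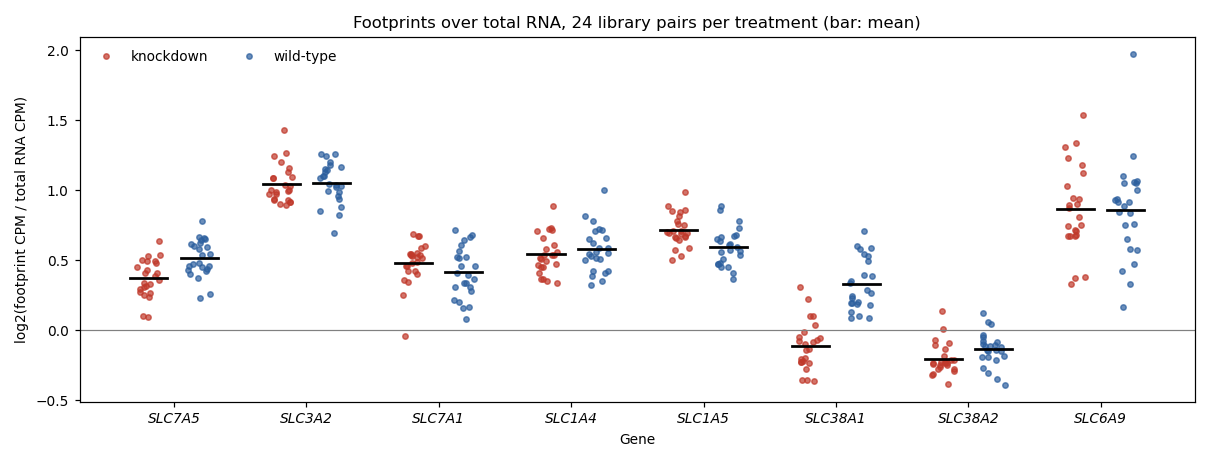
Log2 ratio of footprint to total RNA CPM for each gene, 1 point for each of the 24 pairs of libraries with the same time and replicate number in knockdown and in wild-type cells, with bars for the means. SLC38A1 is the gene whose clouds are farthest apart, with means of -0.11 in knockdown and 0.33 in wild-type cells.

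Over the day, more of these transporters followed a 24 h curve in knockdown than in wild-type cells in footprints, 5 and 1 of 8. Leaving out a replicate gave 1 to 3 and 0 to 1 there, and a linear drift in the model gave 2 and none. In total RNA the numbers were 3 and 2. Over all genes, the share passing the same F test (limma, adjusted p of 0.05) was 33.7% in knockdown and 23.1% in wild-type total RNA, and 18.5% in knockdown and 6.97% in wild-type footprints. In wild-type total RNA, where replicate numbers pair the libraries of a series, a fit with the replicate as a block called 4935 genes in place of 2935 and the same number of transporters, 2. A change of rhythm between treatments was tested directly. It passed for 3 of 8 in total RNA and 1 of 8 in footprints, against 10.9% and 3.85% of all genes. The 1 in footprints was SLC38A2, whose rhythm passed in wild-type and not in knockdown cells. With the replicate number as a block in each treatment, SLC7A1 passed as well in total RNA, and SLC7A5 and SLC3A2 in footprints. That block also called more of all genes in both assays. Amplitudes are given from the fitted mean to the peak on the log2 scale. With only 1 day sampled, a 24 h rhythm and a slow drift are hard to distinguish, and a straight line in time was added to the model as an alternative.

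SLC7A5 had the largest amplitude of the 8 in knockdown total RNA. Its total RNA means were 223.8, 251.2 and 221.1 CPM at CT6, CT8 and CT10 and 329.7, 375.1 and 278.5 CPM at CT18, CT20 and CT22, with both replicates high at CT20, at 340.4 and 409.7 CPM. Wild-type means stayed between 301.7 and 336.3 CPM at all 12 times. The amplitude was 0.28 ± 0.04 in knockdown cells, peaking at CT 18.8 (limma adjusted p = 3.12e-05), against 0.04 ± 0.05 in wild-type cells (limma adjusted p = 0.883). The difference between the curves had an amplitude of 0.30 ± 0.07 (limma adjusted p = 0.00885). In footprints the amplitude was 0.26 ± 0.04 in knockdown cells, peaking at CT 19.6 (limma adjusted p = 4.40e-05), and 0.01 ± 0.06 in wild-type cells (limma adjusted p = 0.986). There the test of the difference gave an amplitude of 0.25 with an adjusted p of 0.0793 (limma), and 0.0173 and 0.0433 without replicates 1 and 2. With the replicate number as a block in each treatment, the difference in footprints passed, although the footprint libraries missed the rule for pairing. Both knockdown rhythms passed with a linear drift in the model, but the change of rhythm in total RNA did not (limma adjusted p = 0.253). In the wild-type series of replicate 2 alone, SLC7A5 total RNA had an amplitude of 0.11 (limma adjusted p = 0.0146).

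SLC3A2 was rhythmic in knockdown footprints as well. Its footprint means were 446.4, 502.9 and 416.6 CPM at CT6, CT8 and CT10 and 525.8, 646.5 and 521.8 CPM at CT18, CT20 and CT22, an amplitude of 0.18 ± 0.03 peaking at CT 21.0 (limma adjusted p = 0.00113). Wild-type footprints of SLC3A2 had an amplitude of 0.02 ± 0.06 (limma adjusted p = 0.969), and the change of rhythm missed the threshold (limma adjusted p = 0.222). That change passed with the replicate number as a block, under the same limit on pairing. Without replicate 2 the knockdown rhythm had an adjusted p of 0.0956 (limma). Its total RNA was not rhythmic by this test in either treatment. Across the 12 times, the correlation of SLC7A5 with SLC3A2 (Pearson r of mean log2 CPM, 12 points that share libraries) was 0.88 in knockdown footprints and 0.71 in wild-type footprints. It was 0.31 in knockdown total RNA and -0.04 in wild-type total RNA. The knockdown total RNA means at CT14 and CT18 include the shallow libraries of replicate 2. In those, SLC3A2 had 193.2 and 173.3 CPM, against 229.5 and 247.0 CPM in replicate 1. SLC7A5 had 325.5 and 345.5 CPM in them, against 300.6 and 313.8 CPM in replicate 1. The correlation without the shallow libraries was not computed, so 0.31 and 0.88 are not compared. High values in footprints were not limited to this pair, with 0.85 for SLC3A2 and SLC7A1 in knockdown footprints and 0.83 for SLC3A2 and SLC1A5 in wild-type footprints.

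SLC38A2 had the largest amplitude of the 8 in wild-type cells, in both assays. In knockdown total RNA its means were lowest at CT14, 445.5 CPM, and highest at CT22, 532.6 CPM. The CT14 mean includes the shallow library of replicate 2, at 422.3 CPM against 468.6 CPM in replicate 1. The knockdown amplitude was 0.06 ± 0.02, peaking at CT 1.5 (limma adjusted p = 0.0470). That call was lost without either replicate, without a filter on low values, or in edgeR's quasi-likelihood test (adjusted p = 0.0519). In wild-type total RNA the means were 464.2 to 474.8 CPM from CT0 to CT6 and 537.9 to 598.2 CPM from CT14 to CT22, an amplitude of 0.14 ± 0.03 peaking at CT 16.6 (limma adjusted p = 0.00341). In footprints the amplitude was 0.02 ± 0.03 in knockdown cells (limma adjusted p = 0.792) and 0.20 ± 0.04 in wild-type cells, peaking at CT 16.8 (limma adjusted p = 0.00510). The change of rhythm passed in total RNA (0.19 ± 0.04, limma adjusted p = 0.00119) and in footprints (0.20 ± 0.05, limma adjusted p = 0.0260). With a linear drift in the model no SLC38A2 rhythm or change passed, with adjusted p from 0.118 to 1.00 (limma). Wild-type values of SLC38A2 climbed through most of the day, a course that a straight line also follows. In the wild-type footprints the rhythm had an adjusted p of 0.173 without replicate 2, and the change in footprints 0.100 and 0.132 without replicates 1 and 2, and 0.0525 without a filter on low values (limma).

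SLC1A4 had a shallow rhythm in knockdown cells, on top of its fall. Total RNA means were highest at CT4, 35.6 CPM, and lowest at CT18, 27.1 CPM, an amplitude of 0.14 ± 0.03 peaking at CT 5.2 (limma adjusted p = 0.00439), against 0.03 ± 0.03 in wild-type cells (limma adjusted p = 0.691). Knockdown footprints had an amplitude of 0.16 ± 0.05 peaking at CT 4.0 (limma adjusted p = 0.0475). The change of rhythm passed in total RNA, 0.17 ± 0.04 (limma adjusted p = 0.0161), and missed in footprints (limma adjusted p = 0.189). Without replicate 2 the knockdown total RNA rhythm of SLC1A4 had an adjusted p of 0.154 and the change 0.507, and with a linear drift 0.564 and 0.480 (limma). The change was 0.28 without replicate 1 and 0.11 without replicate 2. The knockdown footprint rhythm had adjusted p of 0.111 and 0.567 without replicates 1 and 2, 0.0515 with median-ratio scaling, 0.0894 without a filter and 0.914 with a linear drift (limma).

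Of the remaining genes, SLC1A5 had a rhythm in knockdown footprints, 0.13 ± 0.03 peaking at CT 1.8 (limma adjusted p = 0.0184), with means of 369.3 CPM at CT0 and 280.0 CPM at CT10. It had an amplitude of 0.06 without replicate 2 (limma adjusted p = 0.610) and an adjusted p of 0.222 with a linear drift (limma). SLC6A9 had 0.27 ± 0.07 in knockdown footprints peaking at CT 23.6 (limma adjusted p = 0.0166), with means of 19.8 CPM at CT2 and 10.7 CPM at CT8, and adjusted p of 0.274 and 0.0782 without replicates 1 and 2 and 0.0699 with a linear drift (limma). SLC38A1 passed in wild-type total RNA only, 0.11 ± 0.03 peaking at CT 4.3 (limma adjusted p = 0.0476), and lost the call without either replicate, with either other scaling, without a filter on low values or with a linear drift (limma adjusted p from 0.0512 to 1.00). SLC7A1 passed in none of the 4 series, and its change of rhythm in total RNA was 0.15 ± 0.04 (limma adjusted p = 0.0537). That change passed with the replicate number as a block in each treatment. In the main fit no change of rhythm passed for SLC3A2, SLC1A5, SLC38A1 or SLC6A9.

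**Figure D5:**
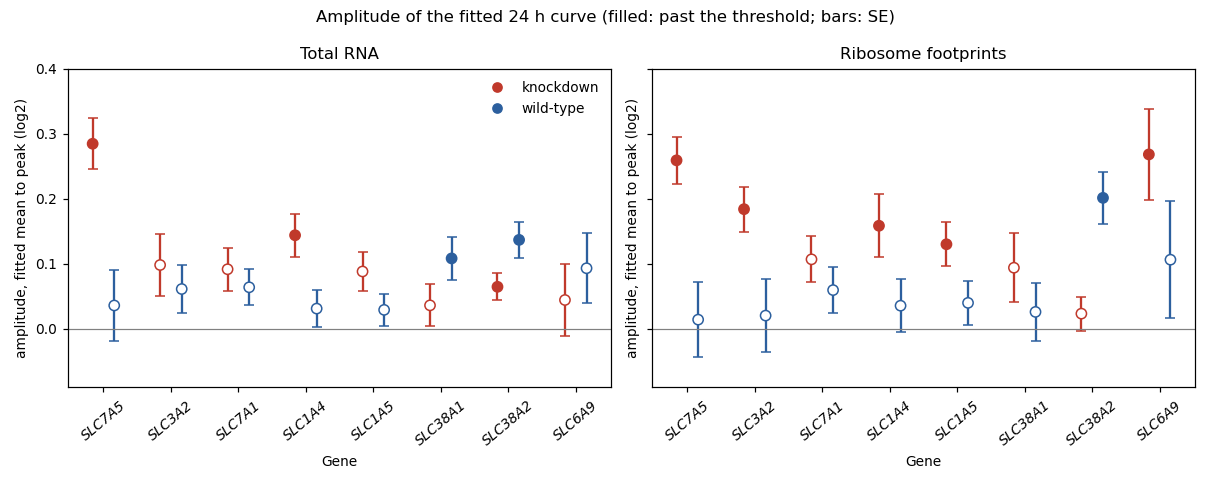
Amplitude of the fitted 24 h curve, from mean to peak in log2 units with bars for the SE, in total RNA and in footprints of knockdown and wild-type cells, with filled points past an adjusted p of 0.05. SLC7A5 stands at 0.28 and 0.26 in knockdown cells and near 0 in wild-type cells, and SLC38A2 shows the reverse order.

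Other amino acid transporters moved both ways. Of 41 listed, 23 were tested in total RNA, and 14 rose and 7 fell in knockdown cells (41.8% and 39.9% of all genes), with a median effect of 0.15 against 0.01 over all genes. SLC6A17, which loads neutral amino acids into synaptic vesicles in neurons, rose by 2.47 ± 0.09, from a low level, at 9.94 ± 1.59 CPM in knockdown and 1.63 ± 0.556 CPM in wild-type cells (SD, n = 24 each, limma adjusted p = 6.19e-22). SLC6A15, a transporter of branched-chain amino acids and proline, rose by 1.22 ± 0.04, at 37.5 ± 7.76 CPM in knockdown and 15.7 ± 1.73 CPM in wild-type cells (limma adjusted p = 8.63e-23). SLC1A3, the glutamate transporter GLAST of the same family as SLC1A4, fell by 1.97 ± 0.04, at 7.52 ± 0.923 CPM in knockdown and 30.0 ± 2.86 CPM in wild-type cells (limma adjusted p = 3.21e-28). In footprints 13 of 20 rose and 4 fell (37.4% and 38.1% of all genes), with 2.52 for SLC6A17, -1.94 for SLC1A3 and 1.01 for SLC6A15. In efficiency 4 of 19 rose and 2 fell (13.1% and 18% of all genes), and none passed with 1 mean for each series. SLC38A6, SLC43A2 (LAT4) and SLC38A10 had the largest effects there, 0.31, 0.27 and 0.25, while under the deposited factors 10 rose and none fell.

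Genes of the ATF4 pathway, whose transcription factor induces several of these transporters, were more often lower than higher. Of 22 tested in total RNA 16 fell and 4 rose (39.9% of all genes fell and 41.8% rose), and in footprints 15 of 21 fell and 4 rose (38.1% and 37.4% of all genes). No test set the list against other genes. It mixes ATF4 and its targets with genes that act upstream of ATF4, so these counts give no direction of ATF4 activity. ASNS, asparagine synthetase, a standard ATF4 target, fell by 1.14 ± 0.07, at 47.8 ± 4.93 CPM in knockdown and 107.9 ± 23.0 CPM in wild-type cells (limma adjusted p = 4.87e-14). DDIT4, a stress-induced inhibitor of mTORC1, fell by 1.19 ± 0.10, at 43.4 ± 11.9 CPM in knockdown and 101.7 ± 33.0 CPM in wild-type cells. SESN2, a leucine sensor that holds mTORC1 back, went the other way, by 1.32 ± 0.05 in total RNA and 1.72 ± 0.05 in footprints. Also in footprints, PPP1R15A, which helps to remove the phosphate from eIF2 alpha, rose by 1.25 ± 0.11, and EIF2AK2, a kinase that puts it there, fell by 1.21 ± 0.04. In efficiency 5 of 21 rose and 5 fell (13.1% and 18% of all genes), among them PPP1R15A (0.79 ± 0.12), ATF5 (-0.65 ± 0.16) and CEBPB (-0.63 ± 0.10). With 1 mean for each series none rose and 1 fell in efficiency. These falls were seen in the treatment in which 6 of the 8 transporters had fewer footprints, and no link between them was tested.

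A list of 31 genes held amino acid sensors, mTORC1 and the genes between them, activators and inhibitors of mTORC1 alike. Of these, 22 rose and 3 fell in total RNA, and 16 rose and 5 fell in footprints. Of all genes, 41.8% rose in total RNA and 37.4% in footprints. As the list mixes both kinds, these counts give no direction of mTORC1 activity. SESN1, a relative of SESN2, rose by 1.12 ± 0.02 in total RNA and 1.45 ± 0.05 in footprints. RRAGD, a GTPase that docks mTORC1 at the lysosome, rose by 0.46 ± 0.04 in total RNA, while RHEB, the GTPase that switches mTORC1 on, fell by 0.53 ± 0.03. In footprints GATSL3, an older symbol of an arginine sensor, rose by 0.57 ± 0.12, and the mTOR partner MLST8 fell by 0.44 ± 0.05. In efficiency 4 rose and 7 fell, a share called near the 31.1% of all genes, with -0.51 for MLST8, 0.33 for SESN1 and -0.26 for LAMTOR5, while under the deposited factors 12 rose and 2 fell. With 1 mean for each series, 13 rose and 2 fell in total RNA.

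Of 12 genes of glutamine and glutamate metabolism 8 rose and 3 fell in total RNA, against 41.8% and 39.9% of all genes. With 1 mean for each series 4 rose and 3 fell, and without replicate 1 it was 5 and 3. PSAT1, an aminotransferase of serine synthesis that uses glutamate, fell by 1.04 ± 0.04, at 30.8 ± 3.34 CPM in knockdown and 63.7 ± 6.91 CPM in wild-type cells. The alanine aminotransferase GPT2 fell by 0.51 ± 0.03 and the aspartate aminotransferase GOT2 rose by 0.31 ± 0.02. In footprints 7 of 11 rose and 3 fell (37.4% and 38.1% of all genes), with -1.03 for PSAT1 and -0.41 for GPT2. In efficiency 1 rose and 1 fell, ALDH18A1 (0.13) and GOT2 (-0.20), where 13.1% of all genes rose and 18% fell.

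Of 9 genes known to regulate the transporters, 5 rose and 3 fell in total RNA, a share called near the 81.7% of all genes. NEDD4, a ubiquitin ligase, fell by 0.74 ± 0.03, at 47.2 ± 5.33 CPM in knockdown and 78.7 ± 4.81 CPM in wild-type cells. Its relative NEDD4L, which marks some transporters for removal from the membrane, rose by 0.43 ± 0.04, and the transcription factor MITF rose by 1.10 ± 0.03. In footprints 4 rose and 3 fell (37.4% and 38.1% of all genes), with -0.93 for NEDD4, 0.65 for MITF and 0.51 for NEDD4L. In efficiency none rose and 5 fell, where 13.1% of all genes rose and 18% fell. With the deposited scaling 1 rose and 2 fell, and none passed with 1 mean for each series. Among the 5 were MITF (-0.45), MAX (-0.29) and NEDD4 (-0.18).

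The genes whose course was most like that of each transporter were found by Pearson correlation of 48 group means, centred within each treatment and assay, among 9223 genes, and are given with no test. ACTN1 (0.86) and TIMP3 (0.82) were nearest to SLC7A5, and S100A16 (0.84) and ETV4 (0.78) to SLC3A2. SEMA3C (0.83) and NEDD9 (0.83) were nearest to SLC38A2, PEA15 (0.77) and SLC7A6 (0.75) to SLC7A1, and LIMK2 (0.77) and GINS2 (0.77) to SLC1A4. SLC7A6 encodes another light chain that pairs with SLC3A2. For SLC1A5 they were FANCE (0.75) and NDRG1 (0.72), for SLC38A1 FAM208B (0.68) and RNF6 (0.59), and for SLC6A9 TRERF1 (0.64) and SMYD4 (0.55). None of the 8 was among the nearest pair of another. Among the 28 pairs of the 8 genes, 5 had a correlation over 0.5 and 12 were below 0, and SLC7A5 with SLC3A2 had 0.55 over all 48 means.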

How the data were processed

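Total RNA and ribosome footprints were measured in 96 libraries. Per the submitters' processing notes, STAR 2.3.0e, HTSeq 0.5.4p1, DESeq2 (no version) and GRCh37 (hg19) were used. Whether counting used strand is not given in the sources used here, so reads of an overlapping antisense gene cannot be told apart. The 8 deposited tables hold a normalised signal, which the authors made with 1 factor per library. Whole reads were recovered (100% of values whole within 0.001 read). The planned count test became limma-trend for this reason.

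Main test: limma 3.58.1 (R 4.3.3, robust) on log2(CPM + 0.25), a scale that understates changes of weak genes, with TMM within each assay (edgeR 4.0.16), genes kept by filterByExpr (minimum count 10), and Benjamini-Hochberg adjustment over all genes, called at 0.05. The knockdown effect is the mean over 12 times; efficiency is the interaction of treatment and assay; rhythms are F tests of a 24 h cosine and sine. The pipeline was tested on simulated data.

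The members and lists were chosen with earlier results of these data known. Named genes are the 8 members, from each list the 3 called genes with the largest change in each knockdown comparison with a mean log2 CPM not under 1, and for each member its 2 most correlated genes with a mean log2 CPM not under 3. A gene that this rule names is not reported here. Alternatives were median-ratio (DESeq2 1.42.0) and deposited scaling, a joint scaling of both assays, no filter, pseudocount 1, edgeR's quasi-likelihood test, each replicate left out, the replicate number as a block, the 2 shallow libraries left out, means per series, and a linear drift. Same-numbered wild-type total RNA libraries deviated together (66 of 66 pairs of times over 0.1, r 0.44 to 0.80), so there the numbers pair the libraries. In wild-type footprints most but not every pair did (59 of 66, median r 0.29), which missed the rule that every pair be over 0.1. They did not pair knockdown with wild-type libraries (2 of 12 times over 0.1 in total RNA, 4 of 12 in footprints). Replicates differed beyond counting error (chi-square per degree of freedom 1.40 to 10.8 over 48 pairs).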

Additional observations from a re-analysis of the deposited data

Results flagged for a closer look

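Differences in efficiency and in rhythm that passed a direct test are collected here as values, and the knockdown effects within each assay are given above. In translational efficiency, the knockdown effect on footprints differed from that on total RNA by -0.44 for SLC38A1 and by 0.12 for SLC1A5 (log2, limma interaction, adjusted p = 1.37e-09 and 0.0299). The 24 h curve differed between knockdown and wild-type total RNA by an amplitude of 0.30 for SLC7A5, 0.17 for SLC1A4 and 0.19 for SLC38A2 (limma, adjusted p = 0.00885, 0.0161 and 0.00119). In footprints it differed by 0.20 for SLC38A2 (limma, adjusted p = 0.0260). Whether single libraries stand apart was not tested.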

How the results depend on the processing

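Over all alternatives, 618 results of single transporters kept their direction and side of the threshold, 49 lost a call, 12 gained one and 9 changed sign, and the cause was not tested. Sign changes were footprints of SLC1A5 (0.0482) and efficiency of SLC3A2 (0.0958), SLC1A4 (0.0640) and SLC38A2 (0.0336) with the deposited scaling, efficiency of SLC3A2 with median-ratio (0.0108) and joint (0.0194) scaling, and efficiency of SLC6A9 with pseudocount 1 (-0.00133). Leaving out a replicate, efficiency ranged from -0.0465 to 0.0427 for SLC3A2 and from -0.0532 to 0.195 for SLC7A1 (called without replicate 2).

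With 1 mean per series, 5 transporters passed in total RNA. In the main fit 81.7% of all genes passed there, and the share with 1 mean per series is not given here. None of the transporters passed in efficiency, where 178 genes passed in all, and SLC38A1 (-0.44) and SLC1A5 (0.12) missed. For wild-type total RNA rhythms, 1 of 8 passed with median-ratio or deposited scaling or without a filter. For rhythm change in footprints, none passed without a filter. With a linear drift, transporters called and all genes called were 1 and 589 for knockdown and 0 and 24 for wild-type total RNA rhythms, 2 and 261 for knockdown and 0 and 7 for wild-type footprint rhythms, and 0 and 154 (total RNA) and 0 and 68 (footprints) for rhythm change.

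The replicate block called 4935 genes for wild-type total RNA rhythms and 1348 for wild-type footprint rhythms. For rhythm change it called 2436 genes in total RNA, and 733 genes with 3 transporters in footprints. The calls gained were SLC7A1 in total RNA (adjusted p = 0.0211) and SLC7A5 and SLC3A2 in footprints (adjusted p = 0.00200 and 0.0286, limma). Pairs of times over 0.1 were 17 of 66 in knockdown total RNA and 13 of 66 in knockdown footprints, so there a number is a shared label only. The block lost no transporter call (7 for the knockdown effect in footprints, 2 in efficiency). For the knockdown effect and efficiency, however, both treatments shared the block. In this balanced design it left the effects unchanged and could not model an offset present in the wild-type series alone. Keeping those calls is therefore no check of them.

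Leaving out a replicate gave 5 to 8 transporters in total RNA and 6 to 7 in footprints for the knockdown effect, and 1 to 3 in efficiency (1867 to 2556 genes). Rhythms gave 1 to 2 in knockdown (1255 to 1980 genes) and 1 to 3 in wild-type total RNA (1622 to 2687), and 1 to 3 in knockdown (474 to 783) and 0 to 1 in wild-type footprints (178 to 497). Rhythm change gave 2 to 3 in total RNA (408 to 961) and 1 to 2 in footprints (86 to 135). For the knockdown effect, the share of all genes that passed without a replicate is not given here. With all libraries it was 81.7% in total RNA and 75.5% in footprints. Footprints rest on fewer reads, which limits SLC38A1 and SLC6A9 most.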
